A study of Mus musculus with 4 samples.

Results

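The autophagy machinery was followed through 37 genes, chosen by symbol from the 24444 genes of the deposited matrix: 17 that start and build the autophagosome, 16 of the conjugation systems and 4 cargo receptors. All 37 symbols were found, and 36 were high enough to test. Poly(A) RNA was taken from oesophageal cells in culture, from mice of the C57BL/6J strain, in 2 wild-type libraries, labelled as untreated and with no CRISPR/Cas9 cassette, and in 2 libraries labelled HET, from the line made by CRISPR/Cas9 microinjection with an Nfe2l2-E79Q cassette. HET is read here as heterozygous. Nfe2l2 encodes NRF2, the transcription factor of antioxidant and detoxification genes, and E79Q is a mutation found in tumours. The series title speaks of a conditional mouse. The driver of the conditional allele, the age of the mice and the number of animals or cultures behind each library are not stated in the labels. P-values therefore measure only the spread between these libraries, which may be technical. Every column name carries the word SV40, which the labels do not explain. The series' design text describes a human breast cancer line with another targeted gene, and the sample labels were followed instead.

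Autophagy encloses cytoplasm in a double membrane and delivers it to the lysosome. The ULK kinase complex and the PIK3C3 lipid kinase complex start the process, ATG9, ATG2 and WIPI proteins supply and mark membrane, and a pair of ubiquitin-like conjugation systems attach ATG8 proteins (the LC3 and GABARAP families) to that membrane. Cargo receptors bind ATG8 proteins on the one side and ubiquitin or other cargo on the other. The receptor p62, encoded by Sqstm1, also binds KEAP1, the protein that targets NRF2 for degradation, which ties selective autophagy to NRF2. The comparison asks which of these transcripts differ between E79Q and wild-type cells.

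Values are variance-stabilised log2 values, on which a gene without reads in any library lies at 6.978. Single values can lie below this, down to 6.897, so 1 value near it does not show whether reads were present. Differences are E79Q minus wild type with the moderated SE of limma over 2 replicate pairs, and a gene was called at a Benjamini-Hochberg adjusted p under 0.05 over all 10857 genes tested. The deposited values had been centred by replicate number within each gene, so the wild-type and E79Q values of a number mirror those of the other. With 2 pairs, the smallest two-sided p of an exact permutation test is 0.5, so each call borrows its precision from the spread of other genes. Ratios of normalised counts come from inverting the variance stabilisation and are approximate. The values hold no depth: inverted normalised counts summed to between 13.5 and 13.9 M per library after the authors' scaling. Among 12 markers of squamous epithelium, 4 were called higher and 3 lower (58.3%, against 40.4% of all genes). The higher ones were Krt6a, Dsg3, Krt13 and Dsc3, and the lower ones Krt15, Epcam and Krt14. Summed normalised counts of the 12 were 154200 to 161500 in wild type and 157600 to 165700 in E79Q. They came mostly from the basal keratins Krt5 and Krt14, so they say little about the other markers. Of 12 fibroblast markers 4 were tested, with 1 called higher (Fbln1) and 3 lower (Vim, Col1a1 and Fbln2). That is 100% of a small group, against 40.4% of all genes. The 12 summed to 3692 to 3709 in wild type against 2284 to 2302 in E79Q, with Lum at the floor. The largest part came from Fbln2, at 2072.1 and 2066.5 in wild type and 1379.2 and 1383.1 in E79Q. The 7 muscle markers summed to 979 to 1022 against 289.8 to 309.7, mostly from Acta2, with Actc1 at the floor. Both tested genes were called lower, against 18.9% of all genes. The 6 immune markers summed to 163.9 to 184.4 against 370.8 to 405.9, nearly all of it from Cd68, a lysosomal protein gene that was called higher, with Ptprc, Adgre1 and Cd3e at the floor. The 4 endothelial markers summed to 17.4 to 23.1 against 10.7 to 12.6, with 0 at the floor. Their part in the autophagy values was not tested. In such bulk samples, fewer cells of a type and less RNA per cell cannot be told apart.

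The autophagy genes moved in both directions, in a share near that of all genes. Of the 36 tested members, 5 were called higher (Uvrag, Gabarapl1, Atg2b, Atg10 and Atg4c) and 8 lower (Map1lc3b, Map1lc3a, Atg2a, Gabarapl2, Calcoco1, Pik3r4, Ulk1 and Wipi2). That is 36.1% of the members, against 40.4% of all genes tested. By direction it is 13.9% higher and 22.2% lower, against 21.5% higher and 18.9% lower over all genes. The differences were small, between -0.38 in Map1lc3b and 0.41 in Uvrag. The median difference was 0.02 in the members and 0.01 over all genes, and the median absolute differences were 0.11 and 0.12. The wild-type and E79Q libraries did not overlap in 26 of 36 members (72.2%), against 79.2% of all genes. After median centring and after quantile normalization the calls over all genes leaned lower instead (47% and 48.7% of calls higher, against 53.2%), so which way all genes lean depends on the scaling. Without the replicate block 19 members were called (52.8%, against 55.3% of all genes), 10 higher and 9 lower. Fits that leave out a library also have no block. By the centring, leaving out either library of a replicate number gave the same differences, so such fits are not separate checks. Without replicate 1 of either genotype they called 20 members (55.6%, against 50.3% of all genes). Without replicate 2 they called 16 (44.4%), against 46.1% of all genes with the wild-type and 46.3% with the E79Q library left out. All 13 members called here were also called in the fit of all libraries without the block. By the centring, fits without the block have a smaller residual variance than the main fit. A call kept in them is therefore a weak check.

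**Figure D1:**
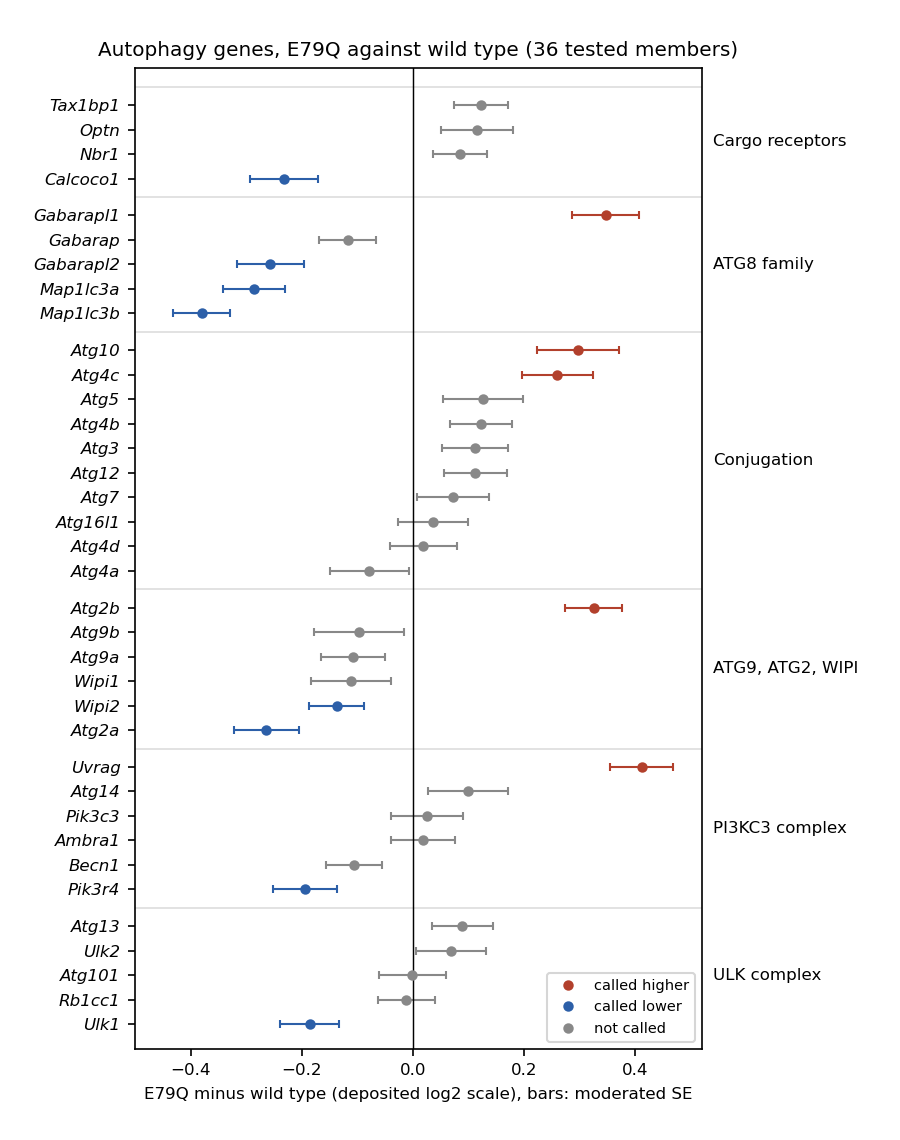
Difference between E79Q and wild type for the 36 tested autophagy genes (x axis, deposited log2 scale), grouped by role, with bars showing the moderated SE over 2 replicate pairs. Called members lie on both sides of 0 in the PI3KC3, membrane supply and ATG8 groups, and none lies beyond 0.41 on the high side or -0.38 on the low side.

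The ATG8 genes held the largest share of calls among the 6 roles, with 1 of 5 called higher and 3 lower. That is 80% of a small group, against 40.4% of all genes. Map1lc3b, which encodes the LC3 protein widely used to mark autophagosomes, read 10.94 and 10.99 in the wild-type libraries against 10.60 and 10.56 in the E79Q libraries, and fell by 0.38 ± 0.05 (limma adjusted p = 2.86e-05, a 1.36-fold lower normalised count). The libraries of the groups did not overlap, as in 79.2% of all genes. Map1lc3a, an LC3 gene too, read 10.09 and 10.11 in the wild-type libraries against 9.83 and 9.80 in the E79Q libraries, and fell by 0.29 ± 0.06 (limma adjusted p = 0.000856, 1.29-fold lower).

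In the GABARAP branch, Gabarapl2 (also called GATE-16) read 9.57 and 9.55 in the wild-type libraries against 9.29 and 9.31 in the E79Q libraries, and fell by 0.26 ± 0.06 (limma adjusted p = 0.00329). Gabarap read 10.95 and 10.90 in the wild-type libraries against 10.78 and 10.83 in the E79Q libraries. Both E79Q libraries were below both wild-type libraries, yet the difference of -0.12 ± 0.05 was not called (limma adjusted p = 0.0832). After median centring, and after quantile normalization, Gabarap passed as lower. Gabarapl1 went the other way: it read 9.67 and 9.60 in the wild-type libraries against 9.94 and 10.02 in the E79Q libraries, a rise of 0.35 ± 0.06 (limma adjusted p = 0.000281, a 1.38-fold higher normalised count). The direction of these 5 genes was the same under each scaling tried.

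**Figure D2:**
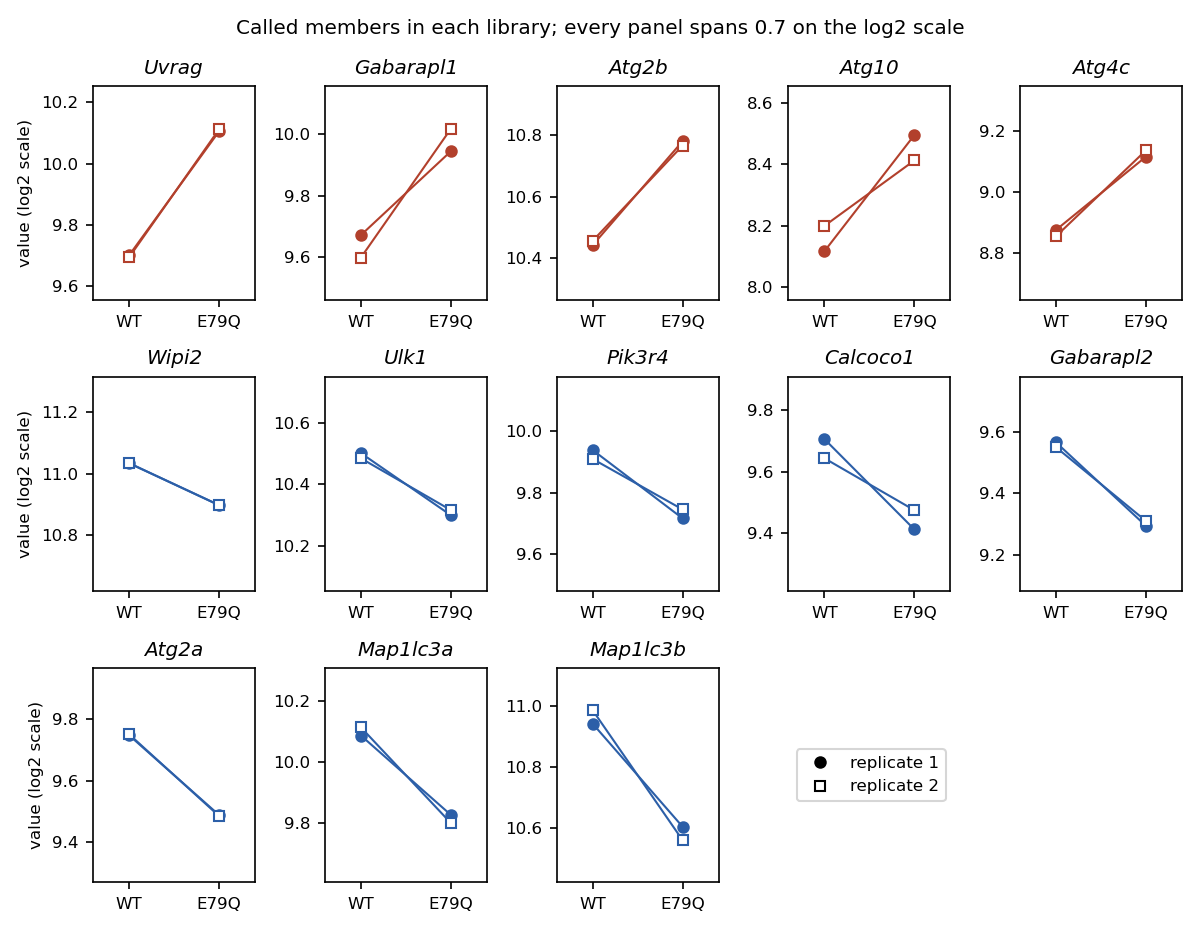
Deposited value (y axis, log2 scale) of each called member in wild-type (WT) and E79Q libraries, with filled circles for replicate 1, open squares for replicate 2 and a line joining each pair. The E79Q points lie above both wild-type points in the 5 members called higher and below both in the 8 called lower.

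The gaps between ATG8 transcripts changed accordingly. The gap between Gabarapl1 and Map1lc3b on the log2 scale was -1.27 and -1.39 in wild type and -0.66 and -0.54 in E79Q, a change of 0.73. The gap between Gabarapl1 and Gabarapl2 was 0.10 and 0.05 in wild type and 0.65 and 0.71 in E79Q. The gap between Map1lc3a and Map1lc3b changed by 0.10, since both fell. Gaps are given as changes within a pair of genes and do not compare their levels, which would need transcript length. These pairs were chosen after the values were seen, and no test was run on the gaps.

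The sequence before the RefSeq start of Map1lc3b, Gabarapl1 and Uvrag is shown so that the windows searched for motifs can be read. On the deposited log2 scale Map1lc3b had the largest fall among the members, and Gabarapl1 and Uvrag the largest rises. Coordinates are on GRCm38.p6, from the RefSeq promoter table, while the submitters' processing notes name mm9. Bases that GENCODE M21 annotates as untranslated exon were left out, and no base is in capitals because none of the letters searched was found.
Map1lc3b, chr8:121590188-121590360, plus strand: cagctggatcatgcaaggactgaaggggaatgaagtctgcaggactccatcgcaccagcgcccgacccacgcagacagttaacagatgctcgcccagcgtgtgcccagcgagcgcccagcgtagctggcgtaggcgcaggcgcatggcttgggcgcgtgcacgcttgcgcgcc
Gabarapl1, chr6:129532942-129533159, plus strand: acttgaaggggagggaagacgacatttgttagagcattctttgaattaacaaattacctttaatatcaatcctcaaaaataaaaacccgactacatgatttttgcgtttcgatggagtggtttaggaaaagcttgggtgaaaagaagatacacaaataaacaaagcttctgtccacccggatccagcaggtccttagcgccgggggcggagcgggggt
Uvrag, chr7:99141145-99141394, minus strand: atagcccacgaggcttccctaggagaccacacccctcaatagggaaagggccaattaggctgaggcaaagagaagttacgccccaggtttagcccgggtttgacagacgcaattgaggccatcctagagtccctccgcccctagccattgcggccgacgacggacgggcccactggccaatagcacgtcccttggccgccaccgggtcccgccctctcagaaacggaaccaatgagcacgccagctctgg

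The letters searched on both strands, in the 250 bases before each start, were TGACNNNGC (the core of the antioxidant response element bound by NRF2), CACGTG (the E-box core shared by the TFEB family's element), TGACGTCA (the cAMP response element, whose first letters overlap the antioxidant element) and TGTTTAC (a forkhead element). RefSeq windows matched 31 of 37 members, in 35 windows. Those without one were Rb1cc1, Becn1, Pik3c3, Atg12, Atg16l1 and Map1lc3a. Of the 13 called members 12 had a window, and 0 of the 12 held any of these letters. The antioxidant element letters stood in 3 of 35 member windows (8.57%) against 10.2% of 32851 windows of all genes, the E-box letters in 3 (8.57%) against 6.02%, the cAMP element letters in 1 (2.86%, Atg16l2) against 1.55%, and the forkhead letters in 0 against 3.17%. A match is a run of letters and not a shown binding site. The 3 members with antioxidant element letters, none of them called, are printed with the match in capitals (on the opposite strand in Atg13).
Atg13, chr2:91710816-91710842, minus strand: cgccccacGCCGCGTCAtcagcacctc
Tax1bp1, chr6:52713950-52713978, plus strand: gtctccgtggTGACGAAGCtctctttccc
Ulk2, chr11:61855093-61855119, minus strand: caagacgcgcTGACGTCGCacagggcc

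The E-box letters stood in front of Atg3, Atg5 and Atg7, all of the conjugation systems and none of them called. Atg3 held them at 2 places, of which the one farther from the start is printed, again with the match in capitals.
Atg3, chr16:45158725-45158750, plus strand: ctccttttgtCACGTGtcctgggaga
Atg5, chr10:44268315-44268338, plus strand: gagcgcttgcCACGTGgtcttggt
Atg7, chr6:114670954-114670979, plus strand: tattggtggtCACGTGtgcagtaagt

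Among the enzymes and substrates of conjugation, 2 of 10 tested genes were called higher and 0 lower (20%, against 40.4% of all genes called and 21.5% called higher). Atg10, the E2-like enzyme that passes ATG12 to ATG5, read 8.12 and 8.20 in the wild-type libraries against 8.50 and 8.41 in the E79Q libraries, a rise of 0.30 ± 0.07 (limma adjusted p = 0.00457, 1.61-fold by normalised counts). It is a low gene, at 82.7 and 95.9 normalised counts in wild type and 153 and 135 in E79Q, and its groups did not overlap. Atg4c, a protease of the family that trims and releases ATG8 proteins, read 8.88 and 8.86 in the wild-type libraries against 9.12 and 9.14 in the E79Q libraries, a rise of 0.26 ± 0.06 (limma adjusted p = 0.00467, 1.35-fold).

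The other 8 tested genes of this group were not called. Their differences ran from -0.08 in Atg4a to 0.13 in Atg5, and 9 of the 10 tested genes had a difference above 0, against 51.5% of all genes. Atg7, the E1-like enzyme at the head of both systems, had a difference of 0.07 (95% interval -0.07 to 0.21). Atg3, the E2-like enzyme for ATG8 proteins, and Atg12 each stood at 0.11, with limma adjusted p-values of 0.149 and 0.127. Atg5, which joins ATG12 and ATG16L1, had overlapping groups, with 9.72 and 9.55 in the wild-type against 9.68 and 9.85 in the E79Q libraries. Atg16l1 had a difference of 0.04 ± 0.06. Atg16l2, the untested member, lay at 7.74 in both wild-type libraries and 7.84 in both E79Q libraries. Among the ATG4 proteases, Atg4b (0.12 ± 0.06, limma adjusted p = 0.0958), Atg4d (0.02 ± 0.06) and Atg4a (-0.08 ± 0.07) were not called.

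In the PIK3C3 complex 1 gene was called higher and 1 lower of 6 (33.3%, against 40.4% of all genes). Uvrag, a beclin 1 partner that acts in endosomal and late autophagic traffic, read 9.70 and 9.69 in the wild-type libraries against 10.11 in both E79Q libraries, a rise of 0.41 ± 0.06 (limma adjusted p = 3.16e-05, 1.45-fold by normalised counts). This was the largest rise among the members on the deposited log2 scale. By normalised counts the low gene Atg10 rose more, 1.61-fold. Pik3r4, the regulatory subunit VPS15, read 9.94 and 9.91 in the wild-type libraries against 9.72 and 9.75 in the E79Q libraries, and fell by 0.19 ± 0.06 (limma adjusted p = 0.0140). The lipid kinase gene Pik3c3 itself had overlapping groups and a difference of 0.03 (95% interval -0.11 to 0.16). Becn1, beclin 1, lay lower in both E79Q libraries without being called (-0.11 ± 0.05, limma adjusted p = 0.112), and was called lower after quantile normalization. Atg14, the subunit of the autophagy-specific form that takes the place of UVRAG, had a difference of 0.10 ± 0.07 with overlapping groups, and Ambra1, a beclin 1 regulator, of 0.02 ± 0.06.

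Of the 5 ULK complex genes only Ulk1, which encodes the main initiating kinase, was called (20%, against 40.4% of all genes). It read 10.50 and 10.49 in the wild-type libraries against 10.30 and 10.32 in the E79Q libraries, and fell by 0.19 ± 0.05 (limma adjusted p = 0.0110, a 1.17-fold lower normalised count). Its relative Ulk2 read 9.62 and 9.71 in the wild-type libraries against 9.78 and 9.69 in the E79Q libraries, with overlapping groups and a difference of 0.07 (95% interval -0.07 to 0.20). The smallest differences of this group were in Rb1cc1, which encodes the scaffold FIP200, at -0.01 (95% interval -0.12 to 0.10), and in Atg101, at 0.00 (-0.13 to 0.13). Atg13, the adaptor between kinase and scaffold, was not called at 0.09 ± 0.06.

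The genes of membrane supply were split by a pair of relatives. Atg2a, a lipid transfer protein that fills the growing membrane, lay at 9.75 in both wild-type libraries and at 9.49 and 9.48 in E79Q, and fell by 0.26 ± 0.06 (limma adjusted p = 0.00219, 1.29-fold lower). Atg2b, its closest relative with the same role, read 10.44 and 10.46 in the wild-type libraries against 10.78 and 10.77 in the E79Q libraries, a rise of 0.33 ± 0.05 (limma adjusted p = 0.000122, 1.30-fold higher). The gap between Atg2b and Atg2a was therefore 0.69 and 0.70 in wild type and 1.29 and 1.28 in E79Q. That change follows from the opposite calls of these genes, and the gap was not tested. Wipi2, which reads the lipid made by PIK3C3 and recruits ATG16L1, lay at 11.03 in both wild-type libraries and 10.90 in both E79Q libraries, and fell by 0.14 ± 0.05 (limma adjusted p = 0.0370). Its call was lost with no filter on low values and with no mean-variance trend. Wipi1, a relative of Wipi2, was not called at -0.11 ± 0.07, with overlapping groups. Atg9a and Atg9b, which encode the lipid scramblases of this step, were not called at -0.11 ± 0.06 and -0.10 ± 0.08, and their groups overlapped in Atg9b only.

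**Figure D3:**
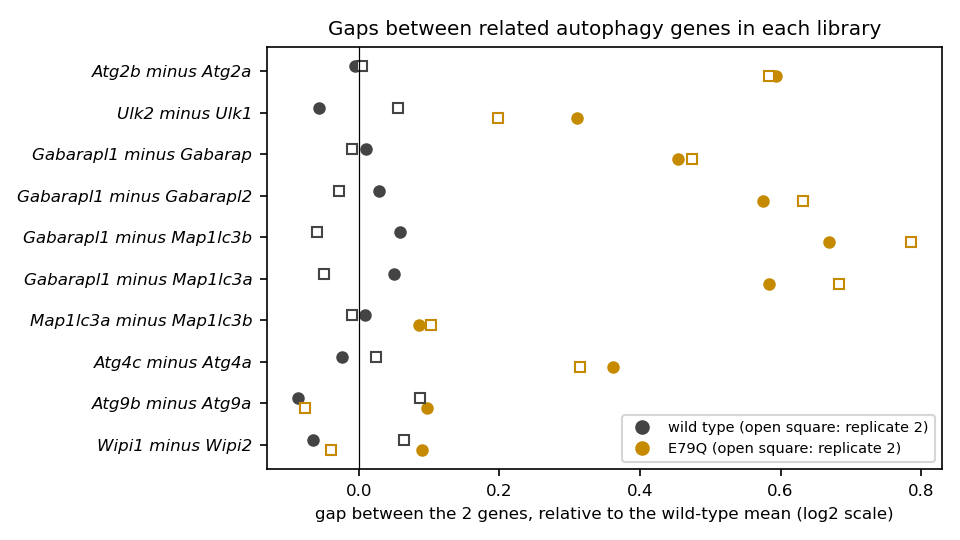
Gap between the values of related autophagy genes in each library (x axis, log2 scale, relative to the wild-type mean of that gap), with wild type in grey, E79Q in ochre and open squares for replicate 2. The gaps of Atg2b over Atg2a and of Gabarapl1 over the other ATG8 genes lie apart between genotypes, while those of Atg9b over Atg9a and Wipi1 over Wipi2 overlap.

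Of the 4 cargo receptors only Calcoco1 was called (25%, against 40.4% of all genes), and it was lower. Calcoco1, a receptor for the endoplasmic reticulum, read 9.71 and 9.64 in the wild-type libraries against 9.41 and 9.47 in the E79Q libraries, and fell by 0.23 ± 0.06 (limma adjusted p = 0.00706, 1.25-fold lower). Tax1bp1, a ubiquitin-binding receptor, read 11.80 and 11.73 in the wild-type libraries against 11.85 and 11.92 in the E79Q libraries, a difference of 0.12 ± 0.05 just short of the threshold (limma adjusted p = 0.0558). Nbr1, a partner of p62 on ubiquitin condensates, read 11.33 and 11.28 in the wild-type libraries against 11.37 and 11.41 in the E79Q libraries, a difference of 0.08 ± 0.05 (limma adjusted p = 0.185). Optn, optineurin, a receptor for damaged mitochondria and bacteria, read 8.94 and 8.93 in the wild-type libraries against 9.04 and 9.05 in the E79Q libraries, a difference of 0.12 ± 0.06 (limma adjusted p = 0.170). In these 3 genes both E79Q libraries were above both wild-type libraries, but none passed the test, and groups do not overlap in 79.2% of all genes. Without replicate 1 of either genotype and with no block, 3 of the 4 receptors were called, with Nbr1 and Tax1bp1 higher, in fits that called 50.3% of all genes.

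Sqstm1, which encodes p62, stood apart from the receptor genes above in size. It read 12.59 and 12.54 in the wild-type libraries against 13.26 and 13.31 in the E79Q libraries, a rise of 0.72 ± 0.05 (limma adjusted p = 6.78e-09, 1.68-fold by normalised counts). The 95% intervals of the 4 receptors reached at most 0.25, below the interval of Sqstm1, from 0.63 to 0.82.

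Further autophagy genes outside the members were read from 4 lists, in which 18 of 70 tested genes were called higher and 16 lower (48.6%, against 40.4% of all genes). Of 18 other receptor and mitophagy genes, 7 were called higher and 4 lower (61.1%). Besides Sqstm1, the largest rises there were in Nufip1, a ribosome receptor (0.37 ± 0.06, limma adjusted p = 0.000158), and Fam134b, a receptor for sheets of endoplasmic reticulum (0.36 ± 0.06, limma adjusted p = 8.43e-05). The largest falls were in Atl3 (-0.24 ± 0.05) and Rtn3 (-0.22 ± 0.05), receptors for tubules of the same organelle, and Phb2, of the inner mitochondrial membrane (-0.17 ± 0.05). Receptors for the endoplasmic reticulum were therefore found on both sides.

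Of 14 other core factors, 4 were called higher and 3 lower (50%, against 40.4% of all genes). Epg5, a tether of autophagosomes and late endosomes, rose by 0.32 ± 0.06, Rubcn, which encodes the UVRAG-binding inhibitor rubicon, by 0.25 ± 0.05 and Vmp1, a scramblase of the endoplasmic reticulum, by 0.22 ± 0.05. Ei24 fell by 0.26 ± 0.05, the WIPI relative Wdr45 by 0.25 ± 0.07 and Tbc1d14 by 0.15 ± 0.06. The Tbc1d14 call was lost in 5 of 12 alternatives. Of 13 genes for fusion with lysosomes, 0 were called higher and 4 lower (30.8% called, against 40.4% of all genes), among them the tethering subunit Vps33a (-0.25 ± 0.06), the SNARE gene Vamp8 (-0.23 ± 0.06) and Vps41 (-0.19 ± 0.06). The median of that list was -0.08.

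Of 25 regulators, 7 were called higher and 5 lower (48%, against 40.4% of all genes). Prkaa2, a catalytic subunit of the energy sensor AMPK, rose by 0.43 ± 0.06 (limma adjusted p = 4.53e-05), Tfe3, a transcription factor of lysosome and autophagy genes, by 0.24 ± 0.05 and Deptor, an mTOR inhibitor, by 0.22 ± 0.07. The Deptor call was lost with no filter on low values. Ddit4, a stress-induced inhibitor of mTORC1, fell by 0.86 ± 0.05 (limma adjusted p = 1.60e-09), Trp53inp2, which binds ATG8 proteins and promotes their lipidation, by 0.59 ± 0.06 (limma adjusted p = 7.55e-07) and Sesn1, an amino acid sensor of the same pathway, by 0.37 ± 0.07. The falls of Ddit4 and Trp53inp2 were larger than that of any of the 36 tested members.

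**Figure D4:**
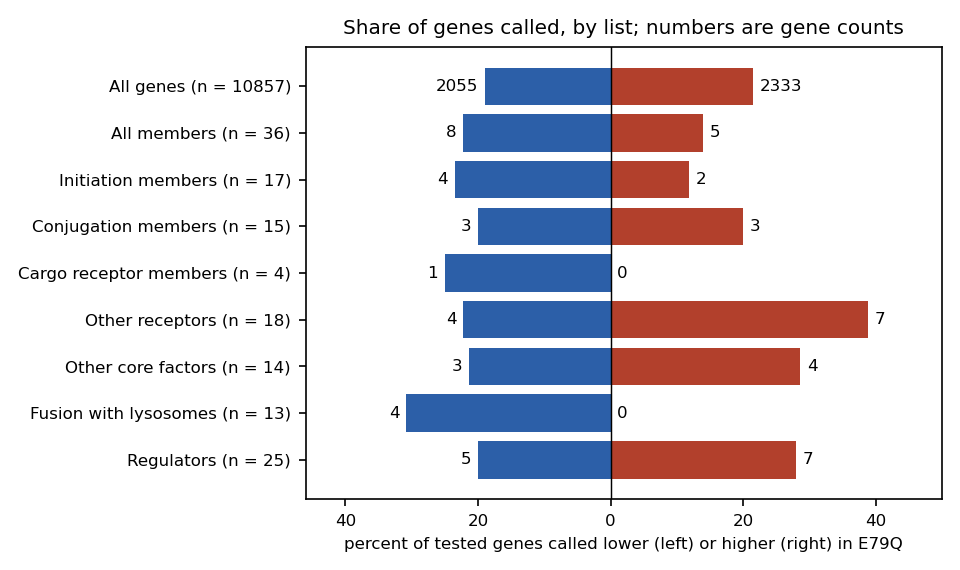
Percent of tested genes called lower (left, blue) or higher (right, red) in E79Q for all genes, for the autophagy members by role and for the 4 further lists, with gene counts beside the bars. The members stand at 13.9% higher and 22.2% lower, close to the 21.5% and 18.9% of all genes, and the fusion list has 0 genes called higher.

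Reads of some members could also belong to other genes. In GENCODE M21 transcripts, at least 10% of the 50-base stretches of 7 members occur, on either strand, in transcripts of another gene. The share was largest in Atg4a (51.2%, a retrogene copy named Atg4a-ps), then in Becn1 (36.8%, the neighbour Cntd1) and Atg9a (30.5%). Among the called members it was 23.1% in Gabarapl1, whose partner 1700101I11Rik lay between 6.94 and 7.08 in the 4 libraries, near the floor. It was 17.4% in Uvrag, mainly from Gm45187, and 12.2% in Gabarapl2, from copies such as Gm3724. Neither Gm45187 nor Gm3724 is in the deposited matrix, so their levels could not be read. The labels do not state the strand setting or how shared reads were treated, so these values are uncertain to that extent. In the other 30 members less than 10% was shared.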

How the data were processed

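Poly(A) RNA of cultured mouse oesophageal cells was sequenced in 2 wild-type and 2 E79Q libraries, grouped by sample title. Per the labels, TRIzol served for extraction and a NEBNext Ultra kit for the libraries. Salmon 0.11.3, STAR 2.5.2b, DESeq2, DESeq 1.22.2 and the build mm9 appear in the submitters' processing notes, with no role for any of them. The authors deposited variance-stabilised log2 values for 24444 genes, of which 8120 lie at a shared floor of 6.978 in all libraries. In every gene the wild-type and E79Q values of a replicate number have the same sum for both numbers, to within 1.31e-13, so the values had been centred on that number, a step the labels do not record. By this centring the deviations of libraries with the same number correlate at -1 across genes, and each number therefore marks a pair of libraries in this table.

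Genes entered the fit where at least 2 libraries were 1 or more above the lowest value of the table. limma 3.58.1 in R 4.3.3 was fitted to all 10857 such genes with genotype and a replicate block (1 residual and 14.6 prior degrees of freedom), a mean-variance trend, and two-sided tests with Benjamini-Hochberg adjustment over all of them. Normalised counts were recovered by inverting the parametric variance stabilisation from the floor, with values under it set to 0. That the authors used the parametric form is an assumption. Values in each library are given for all called members, the cargo receptors and the ATG8 genes, and for overlaps noted in the text. From each further list up to 3 called genes with the largest rise and 3 with the largest fall are named, and Sqstm1. The members and lists were chosen with earlier results of these data known. Lists are described by counts and medians, without a list test. The 12 alternatives concern the block, filter, scaling, empirical Bayes settings, scale and single libraries.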

Additional observations from a re-analysis of the deposited data

How the results depend on the processing

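The 13 calls among the autophagy members kept their direction in each of the 12 alternatives that tested them. These are not all separate, since leaving out either library of a replicate number gave the same differences. Wipi2 lost its call with no filter on low values (12 members called) and with no mean-variance trend (12 members), and Atg10 was not tested under the stricter filter (12 members). With no filter that is 32.4% of the members, against 23.5% of all genes. With no trend it is 33.3% against 37.9%, and under the stricter filter 36.4% against 43.3%. Whether the members lie above or below all genes in share called therefore depends on the filter. Without the replicate block 19 members were called, 10 higher, and 2 of the cargo receptors, while 6004 of all genes were called (55.3%). With a single library left out, which also drops the replicate block, and the lone library of its group assumed to vary like the other group, 16 to 20 members were called, 7 to 9 higher and 9 to 11 lower, with 6 to 9 of the initiation genes, 8 to 9 of the conjugation genes and 1 to 3 of the cargo receptors. Over all genes these fits called 5008 to 5463 (2617 to 2924 higher and 2391 to 2544 lower). Scaling moved the median of all genes by at most 0.018 in size. After median centring 14 members were called (38.9%, against 40.2% of all genes), and after quantile normalization 15 (41.7%, against 40.7%). A crossed pairing of the replicate numbers could not be fitted, because the centring leaves it no residual. The deposited values hold no depth, so counting error is unknown.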
